A study of Mus musculus with 9 samples.

Results

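Hnf4a, Hnf4g, Isx, Gata6, Foxa1 and Foxa2 are transcription factor genes that help to set the identity of the intestinal epithelium. They were taken by symbol from the authors' deposited table of 17511 genes, which compares libraries labelled DKO with libraries labelled Wt, and all 6 were measured. Peaks of Cdx2 ChIP-seq and of ATAC-seq were then read at their loci, each locus being the RefSeq gene span with 50 kb on either side. The series held 9 libraries from mouse large intestinal cells, enriched as epithelium from fresh colon by EDTA. RNA-seq gave 2 DKO and 2 Wt libraries, ATAC-seq, a transposase assay of open chromatin, another 2 and 2, and Cdx2 ChIP-seq 1 Wt library without a replicate. DKO libraries carry the strain tag Cdx1-/-Cdx2f/f vill (+), and Wt libraries the tag Cdx1-/-Cdx2f/f vill (-), so a Cdx1 null and a floxed Cdx2 allele are common to both groups. The labels do not spell out vill or give the age of the mice. RNA and ATAC samples are tagged as tamoxifen treated, with 6 days in the protocol, whereas the ChIP sample is tagged untreated. The labels do not state whether replicates are different animals. The p-values therefore describe only how far these libraries scatter, and that scatter may be technical.

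HNF4 factors are nuclear receptors that bind DNA as dimers at enhancers of lipid handling and brush border genes, and they are known partners of Cdx2 in enterocytes. GATA6 is a zinc finger factor of gut endoderm that is also made by smooth muscle, and FOXA1 and FOXA2 are forkhead pioneer factors that can open compact chromatin and serve the goblet and endocrine lineages. ISX is a homeobox factor of the intestine, induced by retinoic acid, that represses the genes for carotene cleavage and for a lipid uptake receptor.

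The libraries behind these values differed between the groups in ways that touch what follows. Of the targeted genes, Cdx2 was at a log2 fold change of -0.27 with an SE of 0.21 and an adjusted p of 0.301, and Cdx1 at -1.06 with an SE of 0.23 and an adjusted p of 2.08e-05, by the authors' deposited table. Counts over a whole gene do not show whether an exon was deleted, and the labels give Cdx1 as null in both groups, so these values do not check the labels, and DKO and Wt below mean the libraries so labelled. RNA totals were 21197446 and 20069555 estimated reads in DKO, against 16403301 and 25494309 in Wt. ATAC peaks numbered 40101 and 23961 in the DKO lists, against 48163 and 53943 in the Wt lists, with a median fold enrichment of 3.90 and 3.77 in DKO and of 4.95 and 4.88 in Wt. Chromosome Y held 0 peaks in both DKO lists, against 4 and 6 in Wt, and chromosome X held 3.15% and 3.41% of the DKO peaks, against 1.84% and 1.74% in Wt. In the RNA, all 4 Y-linked genes looked up were measured and none was called, with log2 fold changes of 0.06 to 0.53 in the authors' deposited table. The part that these differences play in the results was not tested. All 10 epithelial markers were measured, with Epcam at 39413 mean normalized counts per the authors' deposited table. Of these 10, the authors' deposited table has Krt18 (0.60) among 2 higher in DKO, and Car1 (-2.71), Krt20 (-0.92) and Vil1 (-0.87) as the 3 lower. Of 20 markers of stroma, muscle and endothelium, the authors' deposited table has 20 lower in DKO and 0 higher, at a median of -5.44 on the log2 scale and a range of -9.06 to -1.47. The lowest there by the authors' deposited table were Cnn1 (-9.06), Actg2 (-8.41), Tagln (-8.18) and Acta2 (-8.11), all of smooth muscle. Of 16 leukocyte markers, the authors' deposited table has 6 higher and 5 lower in DKO, led by S100a9 at 12.79, S100a8 at 10.99, Jchain at -3.61 and Igha at -3.46. Deposited gene values carry no level per library, so neither the summed marker level of a group nor any marker at 0 can be given. In bulk tissue, fewer cells of a type and less RNA per cell cannot be told apart.

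The 6 factors split by direction. Isx, Hnf4g, Foxa2 and Hnf4a were lower in DKO, and Foxa1 and Gata6 were higher, in the authors' deposited table at an adjusted p under 0.05. Over all genes, 18.3% were called lower and 18.5% higher, 36.8% in either direction. The order of the deposited log2 fold changes, which give DKO over Wt, was Isx, Hnf4g, Foxa2, Hnf4a, Gata6, Foxa1.

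Isx stood furthest from 0. Its log2 fold change was -5.76 with an SE of 0.32, an adjusted p of 4.89e-72 and a mean normalized count of 1224 over the 4 libraries in the authors' deposited table. Its level was thus 54.1-fold higher in Wt, and its log2 fold change lay at percentile 1.02 of all genes. The next factor in the order, Hnf4g, lay 3.91 above it on the log2 scale, against a combined SE of 0.68 when the 2 errors are taken as independent.

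The paralogs Hnf4a and Hnf4g both fell. Hnf4g, the member with the lowest count, had a log2 fold change of -1.85 with an SE of 0.61, an adjusted p of 0.00189 and a mean normalized count of 89.8 by the authors' deposited table, with a level 3.60-fold higher in Wt. Hnf4a had a log2 fold change of -1.09 with an SE of 0.24, an adjusted p of 2.10e-05 and a mean normalized count of 14033 by the authors' deposited table, with a level 2.12-fold higher in Wt. The change of Hnf4g minus that of Hnf4a was -0.76 with a combined SE of 0.65, or 1.17 times that error.

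The forkhead paralogs moved apart. Foxa2 had a log2 fold change of -1.52 with an SE of 0.26, an adjusted p of 1.95e-08 and a mean normalized count of 418 by the authors' deposited table, with a level 2.88-fold higher in Wt. Foxa1 had a log2 fold change of 0.75 with an SE of 0.20, an adjusted p of 0.000633 and a mean normalized count of 1293 in the authors' deposited table, 1.68-fold higher in DKO. The change of Foxa2 minus that of Foxa1 was -2.28 on the log2 scale, with a combined SE of 0.33. Foxa3, another paralog, was lower at -1.67 (SE 0.37) in the authors' deposited table.

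Gata6 had a log2 fold change of 0.68 with an SE of 0.21, an adjusted p of 0.00413 and a mean normalized count of 1051 in the authors' deposited table, 1.60-fold higher in DKO. Stromal and muscle markers, 20 of 20 of them, stood in the opposite direction in the same libraries, and their part in the value of Gata6 was not tested. Foxa2 and Hnf4g differed by 0.32 (combined SE 0.66), Hnf4a and Foxa2 by 0.44 (combined SE 0.35), and Foxa1 and Gata6 by 0.07 (combined SE 0.29) on the log2 scale. These 3 neighbouring pairs stood at most 1.24 combined errors apart, whereas Gata6 stood 1.77 above Hnf4a (combined SE 0.32), or 5.54 combined errors.

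**Figure D1:**
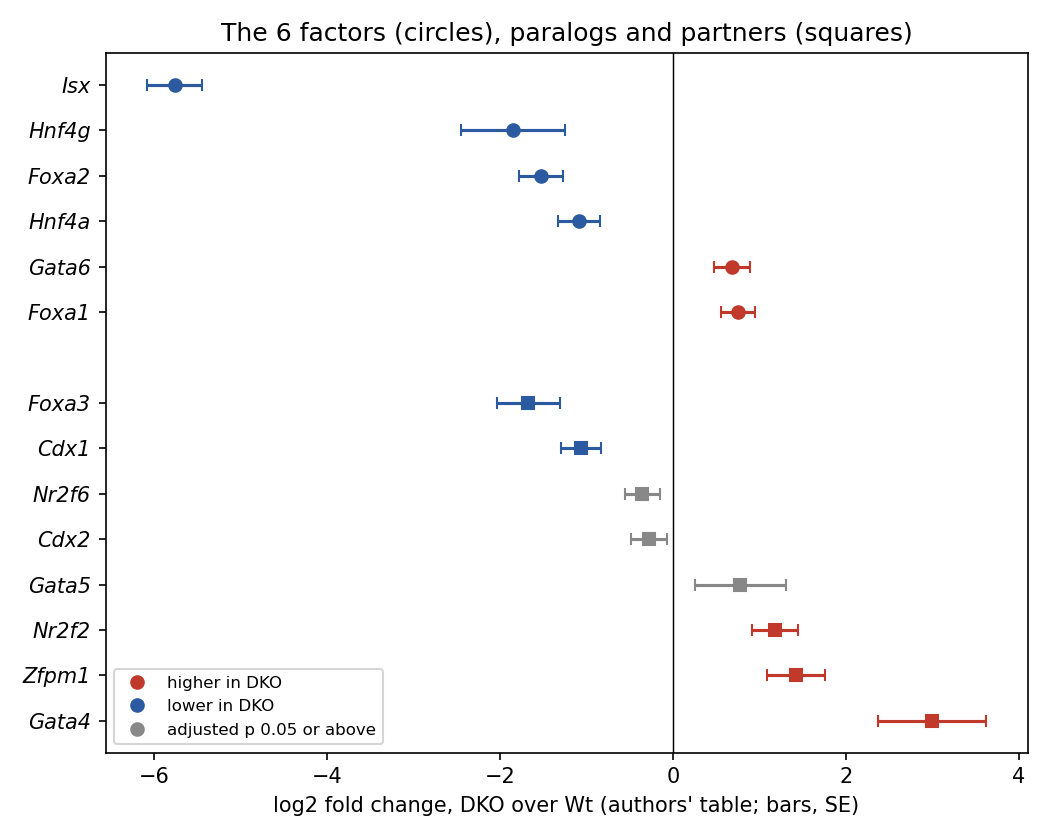
Log2 fold change of DKO over Wt with its SE (horizontal axis) for the 6 factors (circles) and 8 paralogs and partners (squares), from the authors' deposited table; color gives the call at an adjusted p under 0.05. Isx lies alone at -5.76, Hnf4g, Foxa2 and Hnf4a between -1.85 and -1.09, and Gata6 and Foxa1 at 0.68 and 0.75.

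Genes that overlap the factors limit how reads can be assigned, since the sources used here do not state whether strand was counted. The antisense transcript Gata6os, which overlaps the span of Gata6, had a log2 fold change of 0.85 with an SE of 0.57 and an adjusted p of 0.146 in the authors' deposited table. Ttc6, whose span overlaps that of Foxa1, was higher at 1.12 with an SE of 0.53 and an adjusted p of 0.0385 in the authors' deposited table. Hnf4aos, which overlaps Hnf4a, has no row in that table. The Hnf4g and Isx loci held 0 other RefSeq genes within the 50 kb.

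The family around the factors was mixed. Of 12 paralogs, cofactors and partners listed, 8 were measured, with 3 raised and 2 lowered in DKO in the authors' deposited table and a median log2 fold change of 0.25 against -0.02 over all genes. Calls over all genes were 18.5% higher and 18.3% lower. Gata4, the GATA factor of the proximal small intestine, was higher at 2.99 with an SE of 0.62, an adjusted p of 1.51e-06 and a mean normalized count of only 57.3 in the authors' deposited table. Gata5 stood at 0.78 with an SE of 0.53 and an adjusted p of 0.160 in the authors' deposited table and was not called. Zfpm1, a cofactor that binds GATA factors, was higher at 1.42 (SE 0.33), and Nr2f2, an orphan nuclear receptor, at 1.18 (SE 0.27) in the authors' deposited table. Nr2f6, another orphan nuclear receptor, was not called, at -0.35 (SE 0.20) per the authors' deposited table. Cdx1, given above, is the other that fell besides Foxa3.

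A list of other factors of intestinal or neighbouring epithelium, which also holds the mesenchymal factor Nkx2-3, had 45 measured. Of these, 10 rose and 16 fell in DKO by the authors' deposited table, at a median of -0.42 on the log2 scale. The shares over all genes were 18.5% higher and 18.3% lower. The lowest whose mean normalized count was at least 50 were, by the authors' deposited table, Nkx2-3, a homeobox factor of gut mesenchyme, at -5.46 (SE 0.78), and the secretory lineage factors Gfi1 at -2.84 (SE 0.69) and Atoh1 at -2.38 (SE 0.23), followed by the stem cell factor Ascl2 at -2.24 (SE 0.50). Likeness of response was measured as the absolute difference in log2 fold change over 45 factors of these lists with that minimum, since no level per library exists at the gene level. Nkx2-3 was nearest to Isx, 0.30 away, and the next, Gfi1, was 2.92 away. Stromal and muscle markers, 20 of 20 of them, were also lower in DKO, and their part in the value of Nkx2-3 was not tested. Hnf4a had Cdx1 (0.02 away) and Maf (0.07) beside it, and Hnf4g had Foxa3 (0.18) and Ascl2 (0.39). Foxa2 had Zbtb7c (0.14) and Tbx3 (0.15) beside it. Foxa1 had Hic2 (0.01) and Gata5 (0.03), and Gata6 had Id1 (0.01) and Nr1i3 (0.03), and of these 4 genes only Id1 passed the threshold. The SEs of these nearest factors ran from 0.21 (Id1) to 0.78 (Nkx2-3), and every distance but that of Gfi1 lay below the SE of the factor. The nearest of 45 values can lie close without a shared response, and Cdx1 is a targeted gene labelled null in both groups.

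The ChIP-seq comparison asks where Cdx2 bound near the factors in Wt. Cdx2 peaks lay at 4 of the 6 loci, 6 at Hnf4a, 5 at Hnf4g, 4 at Isx and 1 at Gata6, and 0 lay at Foxa1 and at Foxa2. Over 16321 genes of the table with a RefSeq span, 35.6% had a Cdx2 peak in the same window and 1.53% had at least 4. A longer span holds more peaks by its length alone, and the loci run from 104 kb at Foxa2 to 252 kb at Hnf4g. Coordinates are GRCm38, the assembly also called mm10, and fold enrichment over local background and -log10 q are the authors' own for each peak.

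At Hnf4g (chromosome 3, 3508030 to 3659800), the 5 peaks were among the strong ones of the list. A peak at 3503578 to 3503935, 4094 bp left of the span, had a fold enrichment of 10.8 and ranked 160 of 5179 by that value. Inside the span the peaks at 3645684 to 3645944 (fold enrichment 10.7), 3633834 to 3634211 (10.2) and 3618637 to 3618937 (9.53) ranked 167, 215 and 312. A weaker one at 3613718 to 3613972 had a fold enrichment of 6.94 and ranked 1208. None of the 5 overlapped an ATAC peak of any library, whereas 54.2% of all Cdx2 peaks on assembled chromosomes lay outside every ATAC peak. At Gata6 (chromosome 18, 11052510 to 11085636) the single peak lay inside the span at 11060997 to 11061370, with a fold enrichment of 7.75, and overlapped no ATAC peak.

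At Isx (chromosome 8, 74873174 to 74893506) all 4 peaks lay beyond the far end of the gene and none at its start. The strongest, at 74897442 to 74897846, 3935 bp past the end, had a fold enrichment of 8.14 and ranked 622. The peaks at 74921033 to 74921338 and 74901900 to 74902105 had fold enrichments of 6.15 and 5.11, and the one at 74896178 to 74896375 had 3.60, near the bottom of the list at percentile 1.35. An ATAC peak overlapped 1 of them, the peak 27526 bp past the end, in DKO replicate 2 with a fold enrichment of 3.15, and there was none in Wt.

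At Hnf4a (chromosome 2, 163506811 to 163572907) the 6 peaks ran from the upstream start to the region past the end. The strongest, at 163580162 to 163580528, 7254 bp past the end, had a fold enrichment of 9.69 and ranked 277, though the nearest annotated span there is the pseudogene Gm18590. Peaks inside the gene at 163552612 to 163552873 and 163534645 to 163534980 had fold enrichments of 7.67 and 7.0, and one at 163574413 to 163574700, 1505 bp past the end, had 6.60. The peak at the upstream start, 163506432 to 163506692, was weak, with a fold enrichment of 3.77 and a -log10 q of 3.29, at percentile 2.45 of the list. The last, at 163584226 to 163584423, was similarly weak at 3.94.

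Set beside expression, Hnf4a, Hnf4g and Isx, with 4 to 6 Cdx2 peaks in the 50 kb window, were lower in DKO, Gata6 with 1 peak was higher, and the 2 with none, Foxa1 and Foxa2, went opposite ways. These counts depend on how peaks are assigned. Hnf4a kept 3 of its 6 peaks when a peak counted only for its nearest span, the others lying nearest to Hnf4aos or Gm18590. Isx had 3 peaks within 10 kb or at a -log10 q of at least 5, and Foxa2 had 1 peak within 100 kb. Across the 250 genes of the table with at least 4 peaks in the window, 29.6% were called lower and 18.4% higher, and across the 10504 with no peak 17.1% were lower and 19.4% higher. Their median log2 fold changes were -0.10 and 0.02. The 250 include Hnf4a, Hnf4g and Isx, the cut of 4 is the smallest count among these, and span length was not matched. A promoter sequence was given for 4 of the 6 factors, with 7 starts. The sequences shown are the 250 bases before the start, because these are the windows where a Cdx2 or ATAC peak either was or was not called, from RefSeq on GRCm38.p6 and on the strand of the gene. Those of both Hnf4a starts lie on the plus strand at chr2:163506607-163506856 (upstream) and chr2:163546905-163547154 (downstream), that of Isx on the plus strand at chr8:74872924-74873173, and that of the outermost Foxa2 start on the minus strand at chr2:148046970-148047219. Capitals mark matches, on either strand, to the motifs named after the sequences.
Hnf4a upstream promoter: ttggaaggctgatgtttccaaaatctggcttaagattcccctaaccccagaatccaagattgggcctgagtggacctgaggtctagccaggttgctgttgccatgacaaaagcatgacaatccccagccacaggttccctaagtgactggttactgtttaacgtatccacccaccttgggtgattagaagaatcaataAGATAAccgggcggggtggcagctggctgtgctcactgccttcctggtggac
Hnf4a downstream promoter: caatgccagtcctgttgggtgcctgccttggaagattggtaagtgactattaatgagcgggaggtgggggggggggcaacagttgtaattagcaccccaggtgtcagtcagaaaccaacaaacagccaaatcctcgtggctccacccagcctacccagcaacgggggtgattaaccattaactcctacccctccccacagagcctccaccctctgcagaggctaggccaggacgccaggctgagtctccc
Isx promoter: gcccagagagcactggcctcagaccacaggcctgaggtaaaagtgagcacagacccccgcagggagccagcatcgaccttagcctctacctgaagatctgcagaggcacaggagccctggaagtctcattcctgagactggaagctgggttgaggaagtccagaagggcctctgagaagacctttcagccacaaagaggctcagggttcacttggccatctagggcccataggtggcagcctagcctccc
Foxa2 promoter: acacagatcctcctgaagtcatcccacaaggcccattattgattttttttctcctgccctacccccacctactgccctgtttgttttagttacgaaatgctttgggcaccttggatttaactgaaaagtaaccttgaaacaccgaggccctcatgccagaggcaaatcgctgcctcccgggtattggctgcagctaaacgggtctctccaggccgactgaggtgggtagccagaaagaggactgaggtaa

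Each motif was searched on both strands, and no match in a promoter overlapped another. The letters taken for Cdx factors were TTTATG. Those taken for HNF4 receptors were CAAAGTC. Those taken for zinc finger factors of the GATA family were AGATAA. Those taken for forkhead proteins were TGTTTAC. The upstream Hnf4a promoter, which the weak Cdx2 peak and an ATAC peak of both Wt lists overlapped, held 1 GATA match 52 to 47 bases before the start. The summit of that Cdx2 peak, at 163506550, lay outside both the window and the ATAC region. The downstream Hnf4a promoter, under an ATAC peak of both Wt lists and no Cdx2 peak, held no match. The Isx window and the outermost Foxa2 window also held no match, and no Cdx2 or ATAC peak overlapped them. Of the other starts, that of Foxa1 held a FOX match 141 to 135 bases before it, and the innermost of Foxa2 held a GATA match. ATAC peaks of both Wt lists overlapped the Foxa1 window and that of the middle Foxa2 start, and a peak of Wt replicate 2 alone overlapped the innermost Foxa2 window. The Foxa2 window shown is thus the only one of that gene without an ATAC peak. None of the 7 windows held the Cdx or the HNF4 letters, which 10.8% and 3.84% of 32851 RefSeq promoter windows hold, and the GATA and FOX letters are in 9.99% and 3.17%. A match is a description of letters and not of a bound site.

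**Figure D2:**
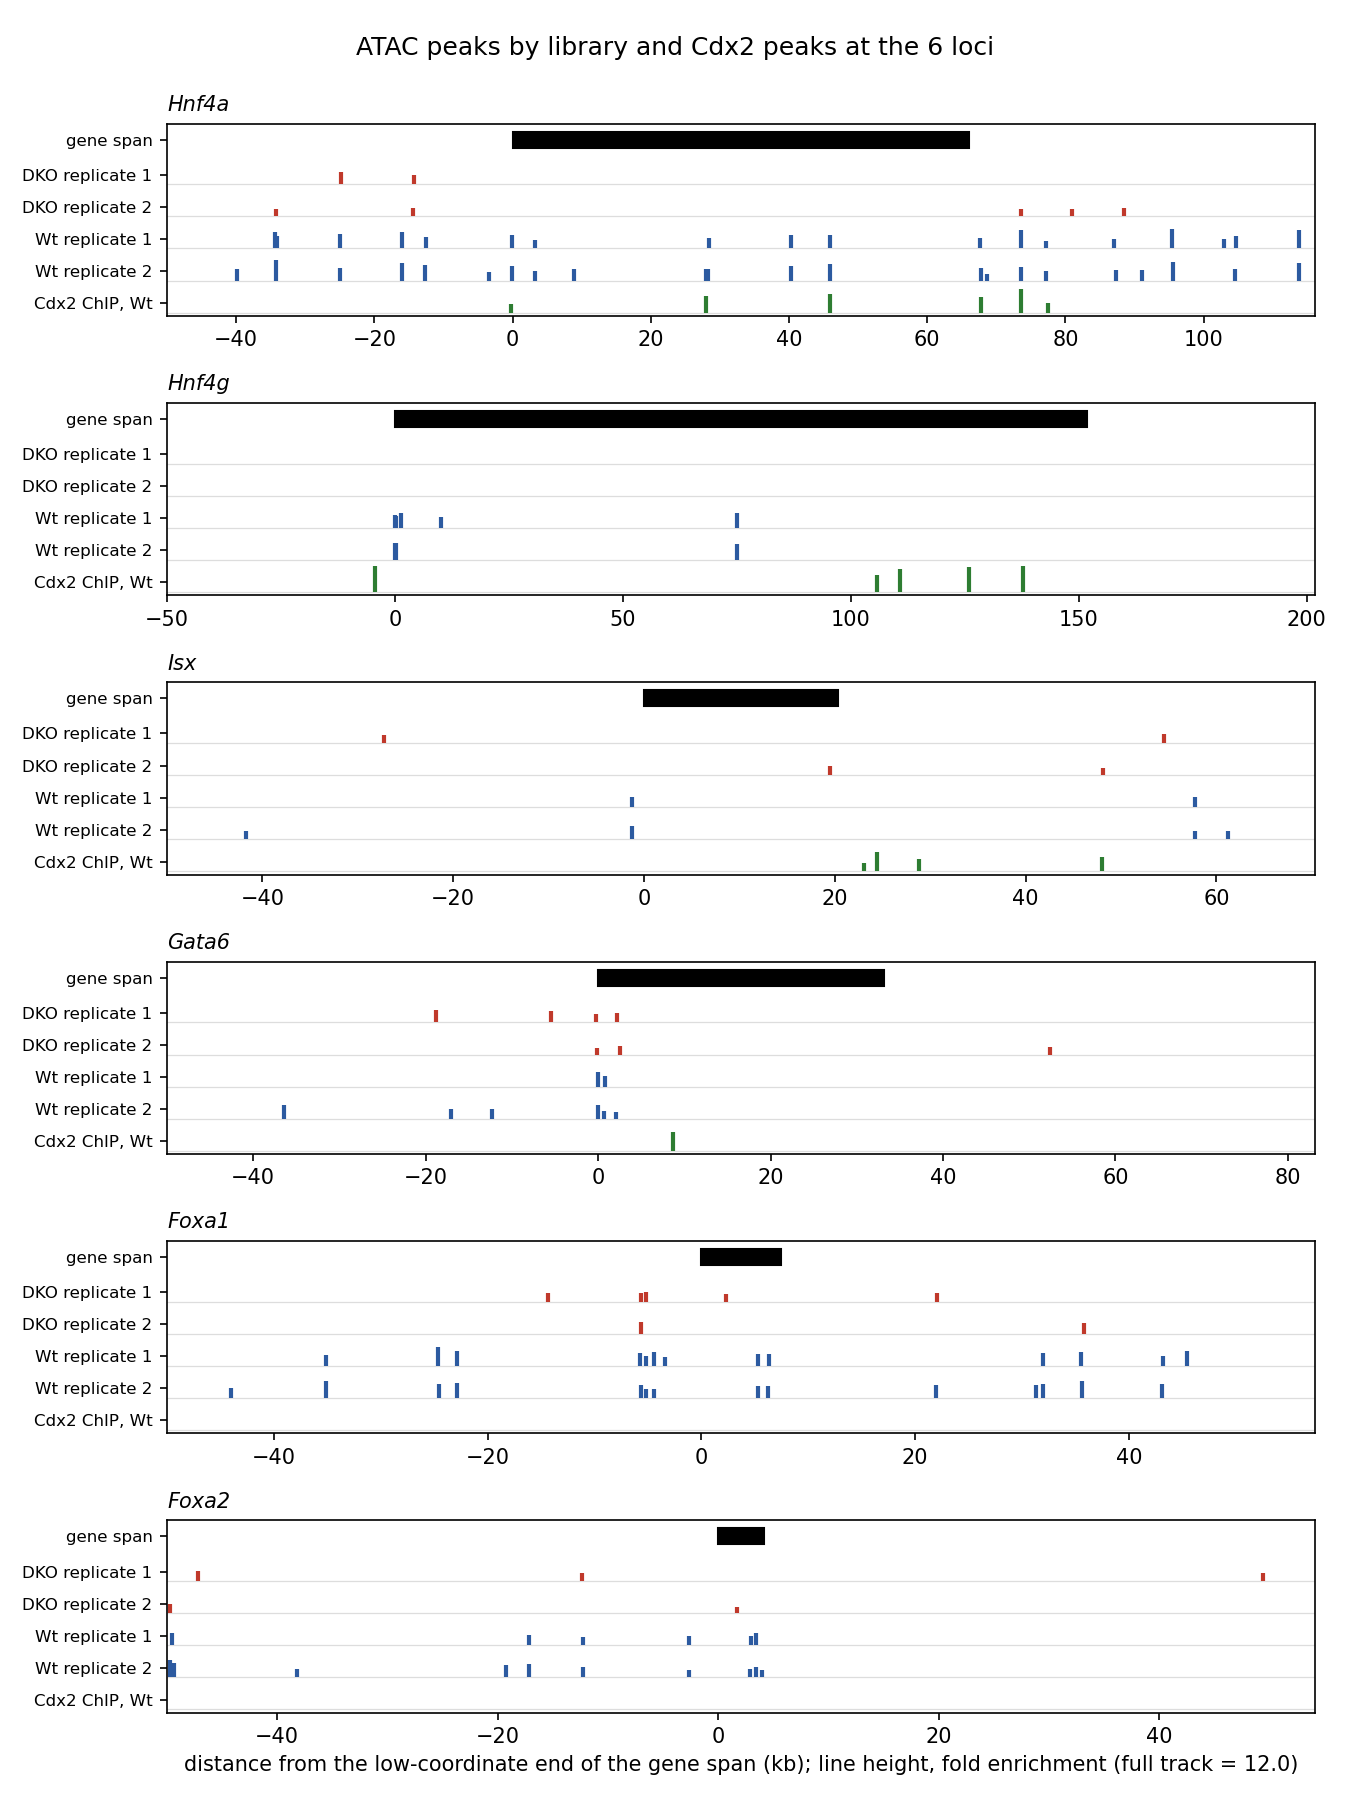
ATAC peaks of the 2 DKO libraries (red) and 2 Wt libraries (blue) and Cdx2 peaks of the Wt ChIP library (green) at each locus, against distance in kb from the low-coordinate end of the gene span (black); line height is the authors' fold enrichment. Hnf4g has 5 Cdx2 peaks and 0 DKO peaks, the 4 Cdx2 peaks of Isx lie past its end, and Foxa1 and Foxa2 have 0 Cdx2 peaks.

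The ATAC comparison asks whether chromatin at the factors was open in each library. Peaks at the 6 loci numbered 16 and 14 in DKO, against 46 and 59 in Wt, or 3.99 and 5.84 per 10000 peaks of the DKO lists, against 9.55 and 10.9 of the Wt lists. The groups did not overlap in this total, also per length of list. Hnf4a alone held 18 and 22 of the Wt peaks, and at Isx and Gata6 the groups overlapped. How many other loci show such a gap was not counted, so the total has no background. The lists are what the authors' caller passed in each library, and a missing peak does not show closed chromatin.

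Peaks that overlap by at least 1 bp across the 4 lists were joined into regions. Of 79 regions at the 6 loci, 30 (38.0%) were held by both Wt lists and neither DKO list, termed lost, where 23.8% of all 106432 regions were lost. The opposite pattern, gained, was found for 1 region, against 4.98% of all regions, and all 4 lists held 2 regions, against 3.54%. With each list cut to its 23961 highest peaks, 16 of 48 regions (33.3%) were lost, against 19.9% of all regions. At a -log10 q of at least 5, 20 of 42 regions (47.6%) were lost, against 45.2% of all 37312 regions, so the shares were close. Without Wt replicate 1 the count of lost regions was 48 of 74 (64.9%), against 45.2% of all regions in that setting. Without DKO replicate 1 the gained count was 8 of 72, against 17.7% of all regions, and 6 regions were in all lists. Without DKO replicate 2 the gained count was 9 of 73, against 33.6% of all regions, and 5 were in all lists. By locus, leaving out Wt replicate 1 gave 19 lost regions at Hnf4a in place of 12, 8 at Foxa2 in place of 4, 4 at Isx in place of 2 and 4 at Gata6 in place of 1. Leaving out Wt replicate 2 gave 5 at Hnf4g in place of 3. With lists of equal length, 0 were lost at Isx and at Gata6, 1 at Foxa2 and 5 at Foxa1 in place of 8.

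Hnf4a had the largest number of regions, 27, of which 12 were lost. The DKO lists held 2 and 5 peaks at the locus, against 18 and 22 in the Wt lists. The region at the upstream start, 163506604 to 163506861, had no peak in either DKO list, against fold enrichments of 5.63 and 6.18 in Wt. The region at the downstream start, 163547018 to 163547204, likewise had no DKO peak, against 5.52 and 5.92 in Wt. The region under the inner Cdx2 peak, 163552559 to 163552899, had none in DKO and 5.64 and 6.89 in Wt. The strongest Cdx2 peak of the locus lay in a region, 163580191 to 163580540, with a peak in DKO replicate 2 at 3.16, none in DKO replicate 1, and 7.75 and 5.53 in Wt. The single gained region of all 6 loci lay here, at 163492373 to 163492599, with 3.91 and 3.35 in DKO and none in Wt. The window also takes in starts of other genes. Among those measured, Fitm2 and Ttpal were not called, at log2 fold changes of -0.10 and 0.36 in the authors' deposited table, and R3hdml was lower at -1.88 with an SE of 1.61, an adjusted p of 0.0497 and a mean normalized count of 12.4. At 163602179 to 163602443, across the low-coordinate end of Ttpal, a region had no DKO peak, against 8.09 and 7.72 in Wt.

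Hnf4g had 0 peaks in both DKO lists over its whole locus, against 5 and 3 in Wt. At its low-coordinate end, regions at 3507849 to 3508089 and 3508204 to 3508334 had no DKO peak, against 5.31 and 7.09 and against 4.88 and 7.19 in Wt. Isx had few peaks in any library, 2 and 2 in DKO against 2 and 4 in Wt. Its region 1217 bp before the start, 74871782 to 74871956, had none in DKO and 4.42 and 5.41 in Wt. A peak inside the gene near its far end, 74892515 to 74892738, was called in DKO replicate 2 alone, at 3.74.

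Gata6 was the factor with an end of the span held by all 4 lists. The region across its low-coordinate end, 11052192 to 11052752, had fold enrichments of 3.35 and 2.74 in DKO, against 6.05 and 5.48 in Wt. The DKO peaks stood at percentiles 18.4 and 4.55 of their lists. Within this joined region, the peak of DKO replicate 1 ends at 11052329, before that of Wt replicate 2 starts at 11052333. At a -log10 q of at least 5, or with a peak over at least 50% of the region, no Gata6 region was in all lists. Inside the gene, at 11054388 to 11055222, peaks were called at 3.97 and 3.65 in DKO and at 2.94 in Wt replicate 2, with none in Wt replicate 1. Its locus held 4 and 3 peaks in DKO, against 2 and 6 in Wt, so the groups overlapped.

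At Foxa1 and at Foxa2, regions near the high-coordinate end of the span had peaks in both Wt lists and none in DKO, while the RNA of these 2 genes went opposite ways. Foxa1 (chromosome 12, 57540628 to 57548029) held 5 and 2 peaks in DKO, against 13 and 14 in Wt, and 8 of its 18 regions were lost. At 57545657 to 57546164 and 57546654 to 57547131 it had no DKO peak, against 4.76 and 5.12 and against 5.12 and 4.88 in Wt. The latter region, the only one within 1 kb of an end of Foxa1, also lies across the low-coordinate end of Ttc6, at 57546704. The former region overlaps the promoter window of the annotated Foxa1 start, 57546112 to 57546361 on the minus strand. A region at 57534764 to 57535149, 5478 bp from the span, was held by all 4 lists, at 3.70 and 4.82 in DKO and 5.49 and 5.50 in Wt. Foxa2 (chromosome 2, 148042877 to 148046969) held 3 and 2 peaks in DKO, against 6 and 10 in Wt, and 4 of its 12 regions were lost. At 148046055 to 148046599 it had no DKO peak, against 5.06 and 4.22 in Wt.

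Within 1 kb of an end of the span, 5 of the 6 genes had a peak in both Wt lists, and 4 of these, Hnf4a, Hnf4g, Foxa1 and Foxa2, had none there in either DKO list. Of 11445 genes with such an end in both Wt lists, 40.4% had no DKO peak at an end. That share was 48.3% among genes called lower and 28.5% among genes called higher. Of the 16 Cdx2 peaks at the loci, 3 lay on a lost region, all at Hnf4a, and 10 lay outside every ATAC peak, against 30.2% and 54.2% of all Cdx2 peaks.

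**Figure D3:**
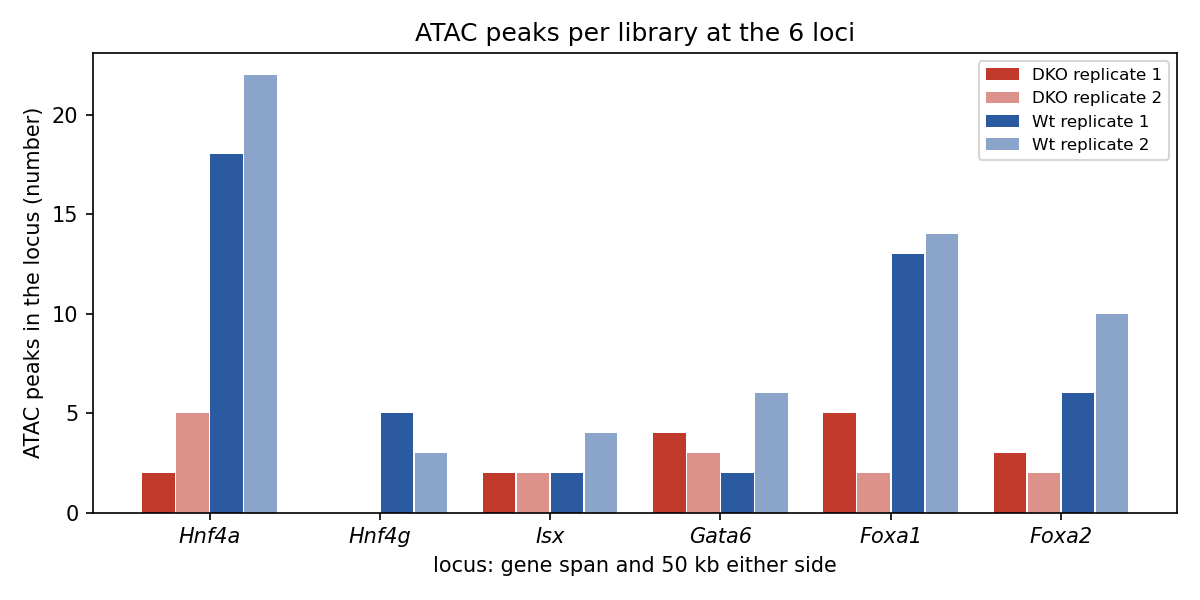
Number of ATAC peaks (vertical axis) called in each DKO library (red) and Wt library (blue) at each locus, gene span and 50 kb either side. Hnf4a has bars of 2 and 5 for DKO against 18 and 22 for Wt, and Hnf4g of 0 and 0 for DKO against 5 and 3 for Wt, while Isx and Gata6 overlap between the groups.

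Genes known or held to act downstream of each factor were read in the same table. Beside the counts of each such list, the shares over all genes were 18.3% lower and 18.5% higher. For HNF4 factors, 32 lipid, brush border and enterocyte genes were measured, of which 17 fell and 7 rose in DKO by the authors' deposited table, at a median of -0.77 on the log2 scale against -0.02 over all genes. The alkaline phosphatase Alpi was at -5.71 (SE 0.47), Slc51a, a subunit of a bile acid transporter, at -5.48 (SE 0.31) and the claudin Cldn15 at -4.96 (SE 0.22) in the authors' deposited table. Mttp, which loads lipid onto apolipoprotein B, went the other way at 4.66 (SE 0.35), and Apob itself, named after its value was seen, was at -0.04 with an SE of 0.26 and an adjusted p of 0.922 in the authors' deposited table.

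For ISX, 14 genes of vitamin A uptake, metabolism and signalling were measured, of which 6 rose and 2 fell in DKO by the authors' deposited table, at a median of -0.05. Bco1, the carotene-cleaving enzyme that ISX is known to repress, was higher at 4.05 with an SE of 0.40 and an adjusted p of 6.48e-23 in the authors' deposited table. Scarb1, the lipid uptake receptor that ISX is also known to repress, named after its value was seen, was higher at 1.92 with an SE of 0.28 and an adjusted p of 8.30e-11 in the authors' deposited table. The retinoid enzymes Rdh7 at 4.02 (SE 0.90) and Aldh1a3 at 2.57 (SE 0.56) were also higher, and Lrat, which stores retinol as esters, was lower at -7.10 (SE 1.41) at a mean normalized count of 50.4, all in the authors' deposited table. Over genes with a mean of at least 50 the median of the list was 1.15, so its sign depends on that minimum.

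For GATA factors, 12 genes were measured, of which 1 rose and 6 fell in DKO by the authors' deposited table, at a median of -1.17. The disaccharidase Sis was at -9.84 (SE 2.97), the signalling ligand Bmp4, which stromal cells also make, at -4.29 (SE 0.75), and the vitamin B12 receptor subunits Cubn and Amn at -2.96 (SE 0.57) and -1.87 (SE 0.33) per the authors' deposited table. For FOXA factors, 19 genes were measured, chiefly goblet and endocrine genes, of which 11 fell and 0 rose in DKO by the authors' deposited table, at a median of -0.79. The 11 include Foxa3, also counted among the partners above, and Cftr. The goblet genes Clca1 at -10.99 (SE 0.36) and Muc2 at -4.95 (SE 0.20) and the peptide hormone genes Nts at -4.29 (SE 0.41) and Sst at -3.12 (SE 0.38) led this list in the authors' deposited table. Gcg, the glucagon gene, which is on both of these lists and is named after its value was seen, was not called, at 0.27 (SE 0.31) in the authors' deposited table. Each list stands beside the stromal markers given above, whose part in these values was not tested.

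**Figure D4:**
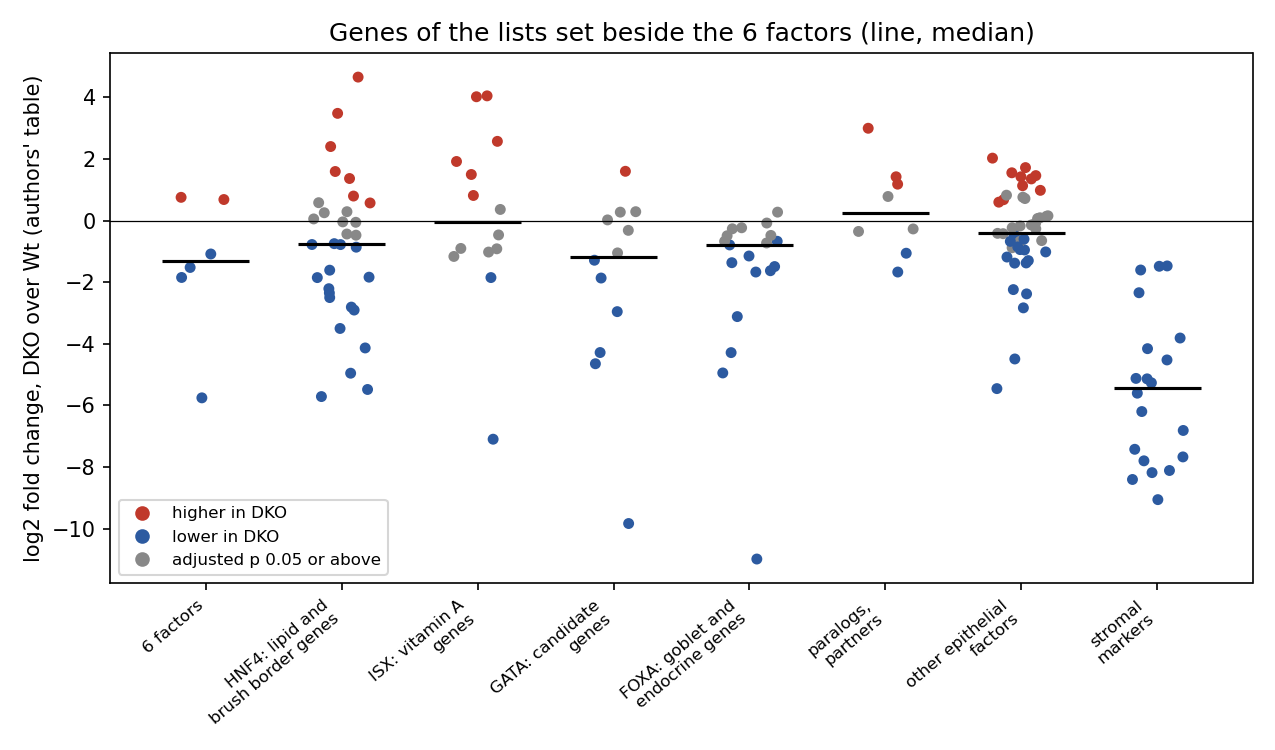
Log2 fold change of DKO over Wt (vertical axis, the authors' deposited table) for each measured gene of 8 lists, colored by call at an adjusted p under 0.05, with the median as a line. The medians are -1.31 for the 6 factors, -0.77 for the HNF4 list, -0.05 for the ISX list, -1.17 for the GATA list, -0.79 for the FOXA list and -5.44 for the stromal markers.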

How the data were processed

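The deposited gene table gives each gene a mean normalized count, a signal that the authors made by scaling counts between libraries, log2 fold changes of DKO over Wt with SEs, and p-values, all by the authors, per the file headers. Salmon 1.3.0, DESeq2, MACS2, Bowtie2, BWA and fastp stand in the submitters' processing notes with mm10 and GRCm38 as builds and with no role stated. Adjusting the deposited p by Benjamini-Hochberg gave back the deposited adjusted p for 17511 of 17511 genes. Deposited estimated counts per transcript, in Salmon's format per the file headers, gave library totals alone, since nothing used here pairs transcript IDs with genes. The planned gene-level count test was therefore not run, and no gene value exists per library. Peak files, called per library as the peak names show, gave the authors' fold enrichment ratio and -log10 q. Neither the ChIP control nor the caller settings are stated in the sources used here.

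Genes were placed by RefSeq spans of GRCm38.p6, without strand or exons, so no peak can be called exonic or intronic. Of the 17511 genes, 16321 (93.2%) had a span. Loci took 50 kb either side, peaks were joined at 1 bp of overlap on assembled chromosomes, and gene ends took 1 kb, in Python 3.11.15 with numpy 2.4.6 and pandas 2.3.3. Overlap and adjustment code was tested on simulated data. Named genes are the 6 factors, Cdx1, Cdx2, every measured partner on the list reported, the 2 nearest factors, and per list up to 4 called genes with the largest absolute change at a mean of at least 50 normalized counts. The members and the 9 lists beside them were chosen with earlier results of these data known. The number of libraries, 2 a group, limits the precision of every comparison. Some listed partners and a searched motif are not reported here, and counts and medians were computed without them.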

Additional observations from a re-analysis of the deposited data

How the results depend on the processing

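All 6 calls, 4 lower and 2 higher, kept direction and threshold over the genes whose mean normalized count was at least 50, under the Benjamini-Yekutieli adjustment (largest adjusted p 0.0427, for Gata6) and after recentring on the median of all genes (-0.02) or of those genes (0.07). List counts stayed within 1.5 times at that minimum. Cdx2 peaks numbered 16, and 13 to 17 across windows of 10 and 100 kb, a -log10 q of at least 5 and nearest-span assignment. By locus, Hnf4a moved to 3 by nearest span and Foxa2 to 1 at 100 kb, and the other loci stayed within 1.5 times. Cdx2 peaks on a lost region numbered 3, and 2 by summit, and those outside ATAC peaks 10, and 11 by summit.

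Lost regions numbered 30 of 79 (38.0%), with 17 of 34 (50%) in a window of 10 kb, 16 of 48 with lists of equal length and 33 to 48 without 1 library. Over all regions the share lost was 23.8%, whichever window is taken. By locus, lost regions at a -log10 q of at least 5 numbered 2 at Foxa2, 1 at Hnf4g and 0 at Isx, those at 10 kb 6 at Hnf4a, 3 at Foxa1 and 1 at Isx, and those at 100 kb 7 at Foxa2 and 2 at Gata6. The gained region numbered 1, with 0 in a window of 10 kb or at a -log10 q of at least 5, 2 in a window of 100 kb, with equal lists or with a peak over at least 50% of the region, and 1 to 9 without 1 library. Regions in all lists numbered 2, with 0 at a -log10 q of at least 5, 1 with equal lists or 50% cover, and 2 to 6 without 1 library. A pattern over fewer libraries is met more easily by its construction, and the cause of the other shifts was not tested.

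No paired analysis was possible because the gene table is the authors' comparison without values per library and the peak patterns come from no test. The alternatives of a gene-level count test were not run. ATAC depth is unknown, and a signal below the caller's threshold cannot be told from none.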
